A study of Homo sapiens with 12 samples.

Results

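Transcripts of 10 glycolytic enzymes were followed across U87 cells that received anti-seed peptide nucleic acids against miR-10b, miR-21 or both. The enzymes are HK2, GPI, PFKP, ALDOA, ALDOC, TPI1, PGK1, ENO1, ENO2 and LDHA. They were chosen by gene name, with earlier results of these data known. Their counts beside the shares of all genes are therefore descriptions and not independent evidence. Each of the 10 names matched a single one of the 35741 genes in the count table. All 10 also passed the filter on low counts. They belong to one pathway and are not replicates of one another. On hg38 (GENCODE 29, all protein coding) they lie at chr2:74833981-74893359 (HK2), chr19:34359480-34402413 (GPI), chr10:3066333-3137712 (PFKP), chr16:30064164-30070457 (ALDOA), chr17:28573115-28577264 (ALDOC), chr12:6867119-6870948 (TPI1), chrX:77910739-78129296 (PGK1), chr1:8861000-8879250 (ENO1), chr12:6913745-6923698 (ENO2) and chr11:18394388-18408425 (LDHA), so TPI1 and ENO2 are near neighbours and the others are scattered.

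U87 is an established human glioblastoma line. The labels place its 12 libraries in 4 groups of 3 and call the genotype WT in every group. Control cells were untreated, and the labels give no incubation time for them. PNA-10b cells received sgPNA-10b at 150 nM for 72 h, PNA-21 cells received sgPNA-21 at 150 nM for 72 h, and PNA-10b+21 cells received 150 nM of each over the same 72 h. A peptide nucleic acid is a DNA mimic with a peptide-like backbone, and the anti-seed design binds the seed by which a microRNA recognises its targets. The compounds were delivered in nanoparticles abbreviated BNP, which the untreated Control cells did not receive. An arm given the nanoparticles without an active PNA was not analysed here, so the nanoparticle and the PNA it carries cannot be told apart in a comparison with Control. The labels do not say whether the 3 libraries of a group came from separate cultures, and p-values therefore measure only the spread between these libraries.

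Glycolysis converts glucose to pyruvate in the cytosol, and lactate dehydrogenase then reduces pyruvate to lactate. Glioblastoma cells, like many tumour cells, keep a high glycolytic rate even where oxygen is present. Many of the enzymes exist as isozymes from separate genes, and several are textbook targets of the hypoxia-inducible factors (HIF), which bind the core letters ACGTG or GCGTG in promoters.

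Libraries held between 12846676 and 18305820 gene counts, and the depth ranges of the 4 groups overlapped. The mesenchymal glioma genes VIM (1543 to 1975 CPM, the usual unit of counts scaled to library size) and CD44 (1280 to 1462 CPM) were high in all 12 libraries. The other markers of the glioma and astrocyte list stood far lower. NES was at 10.6 to 16.5 CPM, GFAP at 1.5 to 4.89 CPM and OLIG2 at 1.29 to 3.19 CPM. S100B had 0 to 4 counts and SOX2 0 to 2 counts. Markers of other cell types were low but in part above 0. The immune genes CD3E and PTPRC had 0 to 1 and 0 to 29 counts, and the epithelial genes CDH1 and EPCAM 0 to 1 and 10 to 24. The endothelial genes CDH5, VWF and PECAM1 had 0 to 8, 12 to 33 and 21 to 68 counts. Of the neuronal genes, RBFOX3 had 1 to 10 counts and SYT1 33 to 75, whereas SNAP25 was measured at 60.8 to 86.7 CPM. The library was made from poly(A) RNA, so mature miR-10b and miR-21 were not measured and their knockdown could not be checked.

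The sequences below place the hypoxia-factor letters upstream of the enzymes whose transcripts fell most (ALDOC and PGK1), of LDHA, and of HK2, which was among those that fell least. Each is the stretch of 250 bases before an annotated start, from RefSeq on GRCh38.p14, written 5′ to 3′ on the gene's strand. Capitals mark ACGTG or GCGTG on either strand, and CACGTG counts once for each strand. The ALDOC stretch is chr17:28576896-28577145 on the minus strand, PGK1 is chrX:78103998-78104247 on the plus strand, LDHA (first of its annotated starts) is chr11:18394313-18394562 on the plus strand, and HK2 (second start) is chr2:74834920-74835169 on the plus strand.
ALDOC: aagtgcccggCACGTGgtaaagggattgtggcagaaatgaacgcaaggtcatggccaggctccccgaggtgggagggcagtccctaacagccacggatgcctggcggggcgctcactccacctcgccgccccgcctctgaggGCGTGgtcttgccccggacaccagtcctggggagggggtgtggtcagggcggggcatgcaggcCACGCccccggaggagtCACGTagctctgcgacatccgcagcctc
PGK1: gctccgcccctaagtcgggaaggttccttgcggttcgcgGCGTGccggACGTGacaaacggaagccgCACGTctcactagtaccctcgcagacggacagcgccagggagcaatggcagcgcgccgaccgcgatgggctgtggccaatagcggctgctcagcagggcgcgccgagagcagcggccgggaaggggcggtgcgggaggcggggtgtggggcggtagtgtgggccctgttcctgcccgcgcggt
LDHA: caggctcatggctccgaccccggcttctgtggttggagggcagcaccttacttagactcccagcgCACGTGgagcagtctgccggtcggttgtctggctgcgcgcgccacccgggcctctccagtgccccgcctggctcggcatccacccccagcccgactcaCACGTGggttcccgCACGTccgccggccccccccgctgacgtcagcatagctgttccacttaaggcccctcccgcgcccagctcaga
HK2: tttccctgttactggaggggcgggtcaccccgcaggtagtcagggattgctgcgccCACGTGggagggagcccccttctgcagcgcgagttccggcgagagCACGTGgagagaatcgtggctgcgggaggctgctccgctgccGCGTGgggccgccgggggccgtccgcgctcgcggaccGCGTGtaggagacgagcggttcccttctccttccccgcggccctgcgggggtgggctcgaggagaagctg

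The ALDOC stretch holds 5 such matches, PGK1 holds 3, LDHA holds 5 and HK2 holds 6. For LDHA and HK2 the stretch with more matches is shown. The second LDHA start has 1 match and the first HK2 start has 3. The stretches shown are among those with the most matches. Of the enzymes not shown, PFKP held 0, 0, 1 and 3 matches at its starts and ALDOA 1, 2 and 1. TPI1 held 0 and 2, ENO1 held 2, and GPI and ENO2 held 1 each. A relation between the number of matches and the size of the fall was not tested. RefSeq lists 18 start sites for the 10 enzymes, and the windows of 300 bases around them (250 before and 50 after) held either letter string at 15 of the 18 starts (83.3%). Over all genes, 48.4% of 35116 windows held one, and among windows of the genes tested here the share was 59.7%. ACGTG, with or without GCGTG, occurred in 12 of the 18 windows against 25.2% of the windows of tested genes. GCGTG, with or without ACGTG, occurred in 9 of the 18 against 47.5%. Both windows without such letters in PFKP, and the one in TPI1, had another annotated start of the same gene that held them. Each of the 10 enzymes thus had at least 1 window with a match, against 52.4% of 27305 genes. That share covers all genes with windows, tested here or not. The 10 enzymes had 18 windows and the 27305 genes had 35116. More windows per gene give more room for a match, so these per-gene shares are not like for like. A match of letters is a description and not a binding site.

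The mature sequence of miR-21-5p (RefSeq on GRCh38.p14, chr17:59841273-59841294, plus strand) is shown with its seed, bases 2 to 8, in capitals, beside the only stretch of an enzyme's longest annotated 3′ UTR (GENCODE 29) that pairs with all 7 seed bases. That stretch begins its match at base 2413 of the 3466 bases of the PGK1 3′ UTR, and capitals mark the 7 bases ATAAGCT.
miR-21-5p: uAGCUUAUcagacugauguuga
PGK1: ataacttgtgtgcatATAAGCTagaacagt

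The letters ATAAGCT were in the 3′ UTR of 1 of the 10 enzymes (PGK1), against 9.81% of 16805 genes with an annotated 3′ UTR. The enzymes thus held the letters about as often as genes at large. PGK1 fell in the PNA-21 libraries, as given below.

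Levels of different genes were compared as counts per kilobase of exon and library size (RPKM), since longer transcripts collect more reads. In Control cells ENO1 (enolase 1, which forms phosphoenolpyruvate) stood highest at 650 ± 57.3 RPKM (SD, n = 3), followed by TPI1 (triose phosphate isomerase) at 599 ± 41.6. LDHA, the lactate dehydrogenase A subunit, followed at 508 ± 41.6 RPKM and PGK1, the phosphoglycerate kinase that yields ATP, at 435 ± 27.2. ENO1 and TPI1 differed by less than their spread. ENO2, the enolase best known from neurons, reached 176 ± 2.64 RPKM.

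The early steps had lower levels. PFKP, the platelet-type phosphofructokinase at the committed step, stood at 94.2 ± 0.809 RPKM and HK2, the hexokinase that phosphorylates glucose at the start, at 78.5 ± 1.83. ALDOC, the brain-type aldolase, stood at 37.9 ± 2.89 RPKM and GPI, the glucose phosphate isomerase, at 25.7 ± 0.633. With the length of the transcript with the longest coding sequence in place of all exons, LDHA (1369 RPKM) came before TPI1 (918) and GPI (63.3) before ALDOC (56.0), so these neighbours have no settled order.

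ALDOA, the main aldolase of muscle and of many cells, was listed at 10.3 ± 0.544 RPKM in Control, the lowest of the 10. That level is uncertain. In GENCODE 29, another gene on the same strand, AC093512.2, covers 93.8% of the ALDOA coding bases, and 53.5% of all ALDOA exon bases are shared with other genes. How reads in shared exons were counted is not given in the sources used here. ALDOA had 428 to 727 counts per library and AC093512.2 had 49 to 91. The fold changes of ALDOA below rest on those counts and may describe only its unshared bases. Processed pseudogenes of TPI1 held 3.77% to 4.44% as many counts as TPI1 itself, and those of HK2, ALDOA, PGK1 and LDHA held 0.303% or less. For GPI, PFKP, ALDOC, ENO1 and ENO2 no pseudogene of that name was among the genes counted.

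**Figure D1:**
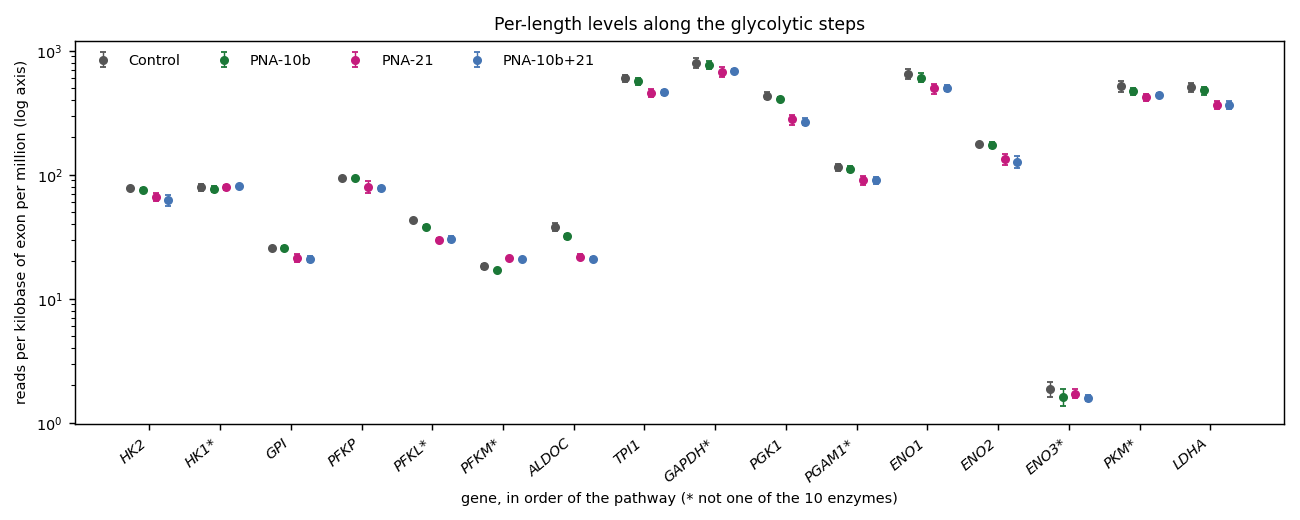
Mean RPKM (log axis) of each gene in pathway order for the 4 groups, with bars of 1 SD over 3 libraries; asterisks mark genes of the pathway outside the 10 enzymes, and ALDOA and LDHB are left out because overlapping annotation makes their levels uncertain. TPI1, GAPDH, PGK1, ENO1, PKM and LDHA hold the highest levels, whereas PGAM1, ENO2 and ENO3 of the later steps stand lower. The PNA-21 and PNA-10b+21 points lie under the Control points for the 9 enzymes drawn.

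The sum of the 10 transcripts was lower wherever sgPNA-21 was given. Together they took 1.24% ± 0.0647 (SD, n = 3) of all counts in Control, with libraries at 1.29%, 1.17% and 1.27%. The PNA-10b libraries stood at 1.27%, 1.16% and 1.17%. The PNA-21 libraries stood at 0.930%, 1.02% and 0.893%, and the PNA-10b+21 libraries at 0.883%, 0.959% and 0.968%. Every library with sgPNA-21 lay below every library without it, while Control and PNA-10b overlapped. In bulk RNA, a smaller number of cells with high levels and less RNA per cell cannot be told apart.

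**Figure D2:**
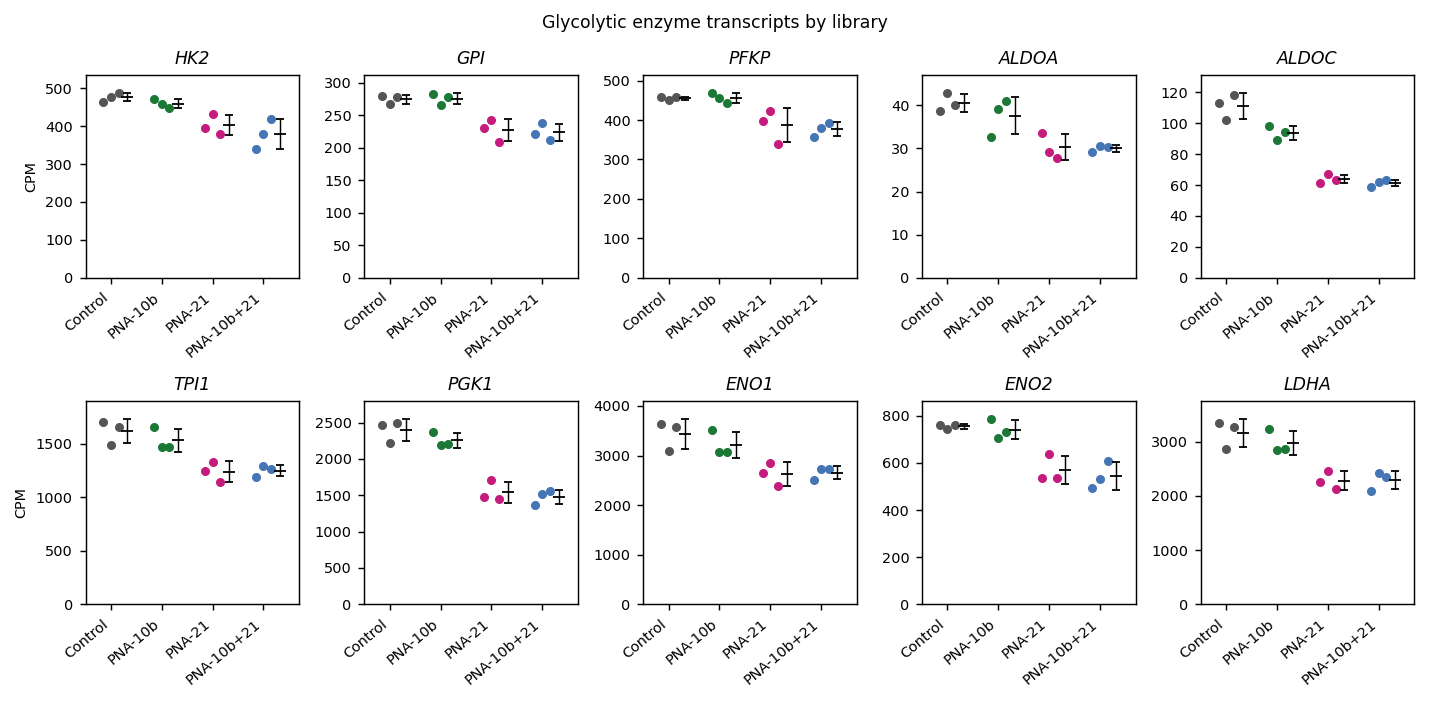
CPM of each of the 10 enzymes in the 12 libraries (points, 3 per group) with the group mean and SD beside them; axes start at 0. For every enzyme, the 6 libraries that received sgPNA-21 lie below the 3 Control libraries, and the PNA-10b libraries overlap Control for all except ALDOC.

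The first question was how the enzymes differed in cells given sgPNA-21 alone. All 10 were lower in PNA-21 than in Control at an adjusted p under 0.05 (edgeR's quasi-likelihood test, Benjamini-Hochberg over 15715 genes), and none was higher. Over all genes tested, 14.6% were called lower and 15.2% higher. The median log2 fold change was -0.40 for the 10 enzymes and -0.01 for all genes, and the members ranged from -0.80 to -0.24. In each of the 10, all 3 PNA-21 libraries lay below all 3 Control libraries, which held for 20.9% of all genes. Some marker genes moved in the same comparison. Of the 7 glioma and astrocyte markers with counts, 5 were tested, and GFAP (-1.10 ± 0.22) and NES (-0.53 ± 0.10) fell while OLIG2 rose (0.64 ± 0.23), with the summed level of the list at 3187 to 3441 CPM in Control and 2847 to 3308 CPM in PNA-21. Of 3 neuron markers 2 were tested, and SNAP25 fell (-0.29 ± 0.06) while SYT1 did not pass (0.29 ± 0.18), with summed levels of 80.6 to 90.1 CPM in Control and 69.8 to 78.3 CPM in PNA-21. Of 3 endothelial markers 2 were tested, and PECAM1 fell (-0.83 ± 0.26) while VWF did not pass (0.40 ± 0.31). The summed immune markers, too low to be tested, were at 0 to 0.295 CPM in Control and at 0.422 to 1.98 CPM in PNA-21, and the epithelial marker EPCAM did not pass (0.21 ± 0.30). The glioma and astrocyte sums are mostly VIM and CD44 (means of 1842 and 1454 CPM in Control), and neither passed in PNA-21. The neuron sums are mostly SNAP25 (83.5 CPM in Control). The part of these markers in the fall of the enzymes was not tested.

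ALDOC cleaves fructose 1,6-bisphosphate and is the aldolase typical of brain. Its CPM was 113, 102 and 118 in Control and 61.6, 66.9 and 63.0 in PNA-21. All 3 PNA-21 libraries were far below the lowest Control library. ALDOC fell by 42.4%, a log2 fold change of -0.80 ± 0.06 (SE, adjusted p = 1.35e-08, edgeR). This was the largest fall among the 10.

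PGK1 catalyses the first step of the pathway that yields ATP. It was at 2463, 2225 and 2502 CPM in Control and at 1472, 1705 and 1442 CPM in PNA-21, with no overlap. Its log2 fold change was -0.64 ± 0.07 (adjusted p = 8.33e-07, edgeR), a fall by 35.8%. The 95% intervals of the log2 fold changes of ALDOC (-0.92 to -0.67) and PGK1 (-0.78 to -0.50) overlap each other, and those of HK2 (-0.38 to -0.11), GPI (-0.39 to -0.16) and PFKP (-0.37 to -0.11) reach neither. The differences between members were not tested.

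LDHA, which regenerates NAD+ by making lactate, was at 3340, 2860 and 3267 CPM in Control. In PNA-21 it was at 2260, 2462 and 2120 CPM. The highest PNA-21 library remained below the lowest Control library, and the log2 fold change was -0.47 ± 0.07 (adjusted p = 6.53e-05, edgeR).

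The other enzymes of the lower pathway fell by similar amounts. TPI1, which interconverts the triose phosphates, was at 1702, 1491 and 1663 CPM in Control and at 1248, 1335 and 1143 CPM in PNA-21 (log2 fold change -0.38 ± 0.07, adjusted p = 0.000184, edgeR). ENO1 was at 3636, 3081 and 3566 CPM in Control and at 2645, 2851 and 2377 CPM in PNA-21 (-0.39 ± 0.07, adjusted p = 0.000551). ENO2 was at 763, 742 and 761 CPM in Control and at 536, 639 and 535 CPM in PNA-21 (-0.41 ± 0.07, adjusted p = 0.000251). In Control replicate 2, TPI1, PGK1, ENO1 and LDHA were each the lowest of the 3 Control libraries, and in PNA-21 replicate 2 each of these was the highest of its group, so the gap is narrowest between these libraries.

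HK2, GPI and PFKP had the smallest log2 fold changes of the 10. HK2 was at 465, 477 and 487 CPM in Control and at 396, 431 and 380 CPM in PNA-21 (log2 fold change -0.24 ± 0.06, adjusted p = 0.00607, edgeR). GPI, which turns glucose 6-phosphate into fructose 6-phosphate, was at 280, 267 and 278 CPM in Control and at 231, 242 and 209.5 CPM in PNA-21 (-0.27 ± 0.06, adjusted p = 0.00103). PFKP was at 457, 451 and 458 CPM in Control and at 397, 424 and 339 CPM in PNA-21 (-0.24 ± 0.06, adjusted p = 0.00680). These falls by 15.2% to 17.2% were small, but the Control libraries of HK2, GPI and PFKP lay close together. PFKP spread more widely in PNA-21, and without PNA-21 replicate 3 its log2 fold change was -0.15. ALDOA, with the limit on its counts given above, was at 38.7, 42.8 and 39.95 CPM in Control and at 33.6, 29.2 and 27.9 CPM in PNA-21 (-0.42 ± 0.08, adjusted p = 0.000596).

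The same question was asked of sgPNA-10b alone. Of the 10 enzymes 1 was lower in PNA-10b than in Control and none was higher, against 3.74% of all genes called lower and 2.75% called higher. That enzyme was ALDOC, at 98.1, 89.2 and 94.1 CPM in PNA-10b. These libraries lay just below the lowest Control library (102 CPM), a gap that 12.8% of all genes showed, and well above the highest PNA-21 library (66.9 CPM). ALDOC fell by 15.4%, a log2 fold change of -0.24 ± 0.06 (adjusted p = 0.0154, edgeR). The call rests on single libraries: without Control replicate 1, Control replicate 3 or PNA-10b replicate 2 the adjusted p was 0.0774, 0.108 and 0.123, with log2 fold changes of -0.23, -0.19 and -0.21.

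The other 9 enzymes had log2 fold changes between -0.10 (ALDOA) and 0.00 (GPI) in PNA-10b, with overlapping libraries. PGK1 was at 2375, 2190 and 2207 CPM and LDHA at 3231, 2840 and 2863 CPM, both within or next to the Control range. For PGK1 the 95% interval of the log2 fold change ran from -0.23 to 0.05, and for LDHA from -0.23 to 0.07. HK2 had an interval from -0.18 to 0.08 and PFKP from -0.13 to 0.13. These intervals bound the changes at this precision and do not show that they were 0. Of the tested markers, NES (-0.37 ± 0.10) and PECAM1 (adjusted p = 0.0302 by edgeR's quasi-likelihood test) fell in PNA-10b.

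The 2 compounds were given at the same dose and time, so they can be set against each other directly. They differ in the microRNA seed they are named for. In PNA-21, 9 of the 10 enzymes were lower than in PNA-10b, against 3.88% of all genes, and none was higher, against 2.91%. In 9 of the 10 the libraries of the compounds did not overlap, against 12.9% of all genes. The median log2 fold change was -0.31, with ALDOC at -0.56 ± 0.06 (adjusted p = 7.50e-06, edgeR) and PGK1 at -0.55 ± 0.07 (adjusted p = 3.72e-05). LDHA differed by -0.38 ± 0.07 (adjusted p = 0.00218), ENO2 by -0.38 ± 0.07 (0.00243), TPI1 by -0.30 ± 0.07 (0.00657) and GPI by -0.28 ± 0.06 (0.00421). ENO1 (-0.29 ± 0.07, adjusted p = 0.0193) and PFKP (-0.24 ± 0.06, 0.0246) passed by a smaller margin. ALDOA passed as well (-0.32 ± 0.08, adjusted p = 0.0214), although its libraries overlapped. HK2 missed the threshold at -0.19 ± 0.06 (adjusted p = 0.0734; 95% interval -0.32 to -0.06), with its 3 PNA-21 libraries below its 3 PNA-10b libraries. DESeq2 called it at 0.0398.

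This comparison does not involve Control, and some of its calls rest on single libraries. Without PNA-10b replicate 1 or PNA-21 replicate 3, 6 of the 10 enzymes passed. PFKP lost the call without PNA-10b replicate 1 or 2 or PNA-21 replicate 1 or 3, where its log2 fold change lay between -0.26 and -0.16. ENO1 lost it without PNA-10b replicate 1 or PNA-21 replicate 1 or 3 (-0.30 to -0.22). ALDOA lost it without PNA-10b replicate 2 or 3 or PNA-21 replicate 2 or 3 (-0.30 to -0.26), and TPI1 without PNA-10b replicate 1 (-0.24, adjusted p = 0.0502, edgeR). HK2 gained it without PNA-21 replicate 2 or PNA-10b+21 replicate 1 or 3. ALDOC, PGK1, LDHA, ENO2 and GPI passed with each of the 12 libraries left out in turn.

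In the cells given both compounds all 10 enzymes were again lower than in Control and none was higher, against 13.4% of all genes called lower and 13.6% called higher. For each of the 10 the libraries lay below all Control libraries, against 19.9% of all genes. The median log2 fold change was -0.40 and the range -0.85 to -0.27. ALDOC was at 58.9, 62.1 and 63.0 CPM (log2 fold change -0.85 ± 0.06, adjusted p = 4.67e-09, edgeR). PGK1 was at 1369, 1516 and 1556 CPM (-0.70 ± 0.07, adjusted p = 2.55e-07). Both sets of libraries lay below all Control and PNA-10b libraries and within or close to the range of PNA-21.

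Among the markers tested in PNA-10b+21 against Control, GFAP (-1.09 ± 0.22), CD44 (-0.13 ± 0.05) and SNAP25 (-0.39 ± 0.06) fell, and the others did not pass. The summed glioma and astrocyte markers were at 2949 to 3132 CPM and the neuron markers at 64.0 to 71.8 CPM, both below their Control ranges. The former sum is mostly VIM, which did not pass, and CD44, and the latter is mostly SNAP25. Summed immune markers were at 0 to 0.44 CPM. Against PNA-10b, SNAP25 alone of the tested markers fell (-0.28 ± 0.06). Their part in the fall of the enzymes was not tested.

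LDHA in PNA-10b+21 was at 2098, 2421 and 2355 CPM (log2 fold change against Control -0.46 ± 0.07). TPI1 was at 1191, 1290 and 1265 CPM (-0.37 ± 0.07), and ENO1 at 2499, 2732 and 2735 CPM (-0.37 ± 0.07). These abundant lower-pathway transcripts again lay below all 3 Control libraries. ENO2 was at 494, 530 and 608 CPM (-0.47 ± 0.07) and GPI at 221, 238 and 212 CPM (-0.30 ± 0.06). PFKP was at 357, 381 and 393 CPM (-0.27 ± 0.06) and HK2 at 339.8, 379 and 420 CPM (-0.33 ± 0.06). HK2 had its widest spread here, with replicate 3 inside the PNA-21 range and the other libraries below it. ALDOA was at 29.1, 30.6 and 30.3 CPM (-0.43 ± 0.08). PNA-21 and PNA-10b+21 share the Control libraries in these comparisons, so their values are given side by side only.

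Adding sgPNA-21 on top of sgPNA-10b was tested in PNA-10b+21 against PNA-10b. The total PNA dose also rose, from 150 nM of sgPNA-10b to 150 nM of each compound. The added compound and the higher total dose cannot be told apart here. All 10 enzymes were lower and none higher, against 5.10% of all genes called lower and 4.61% called higher. The median log2 fold change was -0.32, with ALDOC at -0.61 ± 0.06 (adjusted p = 1.63e-06, edgeR), PGK1 at -0.61 ± 0.07 (adjusted p = 6.49e-06), ENO2 at -0.44 ± 0.07 (0.000412) and LDHA at -0.38 ± 0.07 (0.00191). The other 6 lay between -0.33 (ALDOA) and -0.27 (HK2), and the libraries did not overlap in any of the 10, against 13.4% of all genes. Without PNA-10b+21 replicate 1, 5 of the 10 passed: HK2 (-0.20), PFKP (-0.24), ALDOA (-0.31), TPI1 (-0.27) and ENO1 (-0.24) missed the threshold. ALDOA also missed it without PNA-10b replicate 2 or 3, and ENO1 without PNA-10b replicate 1 or PNA-10b+21 replicate 2.

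Adding sgPNA-10b on top of sgPNA-21 was tested in PNA-10b+21 against PNA-21, where the total PNA dose rose as well. None of the 10 enzymes was called in edgeR's test, where 0% of all genes were called. None of the 10 had an unadjusted p under 0.05, while 1354 of all genes had one, and DESeq2 called 0 genes. The edgeR test called 332 genes without the low-count filter and 48 when only these groups were fitted, none of them among the 10. The log2 fold changes lay between -0.08 (HK2) and 0.02 (ENO1), with a median of -0.03. The 95% interval ran from -0.19 to 0.07 for ALDOC, from -0.20 to 0.08 for PGK1 and from -0.21 to 0.05 for HK2. Libraries of both groups overlapped for each enzyme, while 8.16% of all genes lay fully lower and 6.19% fully higher.

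The interaction is the change that sgPNA-21 brought in the presence of sgPNA-10b minus the change it brought alone, on the log2 scale. None of the 10 enzymes was called by edgeR, against 3.12% of all genes in either direction, and DESeq2 called none of the 10. ALDOC had the smallest p, with an interaction of 0.18 ± 0.08 (unadjusted p = 0.0420, adjusted p = 0.244), meaning a smaller fall in the presence of sgPNA-10b. It was the single enzyme of the 10 with an unadjusted p under 0.05, while 2933 of the 15715 genes tested had one. The other 9 lay between -0.04 (PFKP) and 0.11 (ENO1), with 95% intervals such as -0.17 to 0.23 for PGK1 and -0.12 to 0.30 for LDHA.

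**Figure D3:**
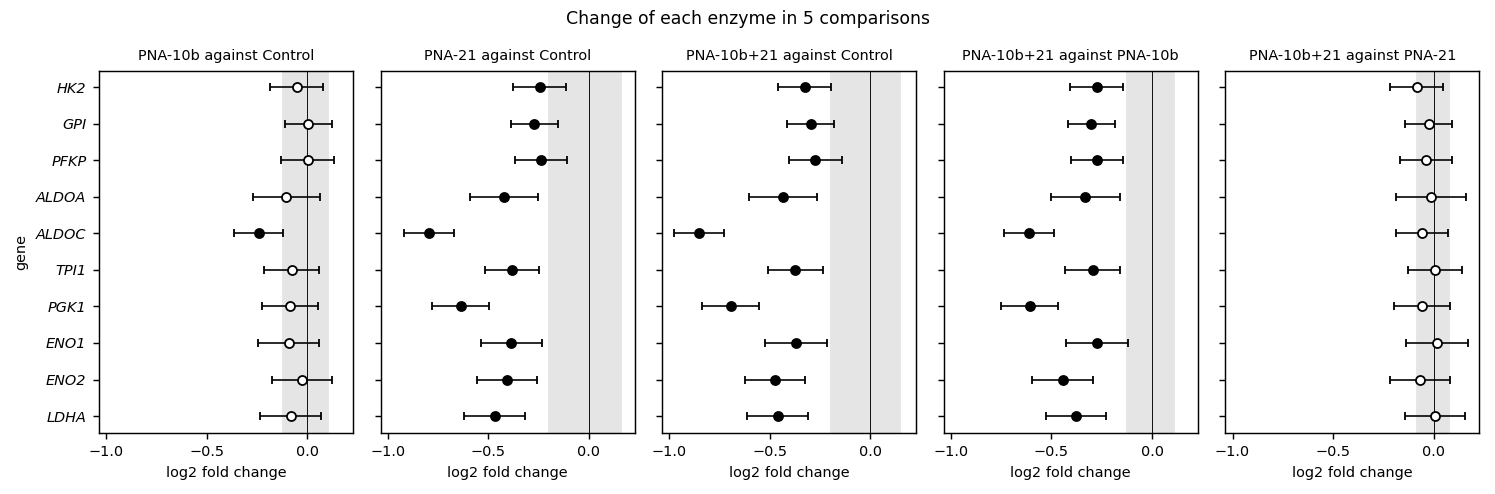
Log2 fold change of each enzyme in 5 comparisons, with 95% intervals of the edgeR fit (3 libraries per group); filled points have an adjusted p under 0.05, and the grey band runs from the lower to the upper quartile of all 15715 genes. All 10 points are filled and negative in the 3 comparisons in which sgPNA-21 was added, 1 is filled for PNA-10b against Control, and none is for PNA-10b+21 against PNA-21.

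Isozymes of the same steps did not all follow the members. HK1, the second major hexokinase, had log2 fold changes of 0.00 in PNA-21 and 0.03 in PNA-10b+21 against Control and did not pass. PFKL, the liver-type phosphofructokinase, fell in all 3 treated groups, at -0.52 ± 0.05 in PNA-21 and -0.50 ± 0.05 where both compounds were given. Its change in PNA-10b was smaller (-0.19 ± 0.05, adjusted p = 0.0261, edgeR). PFKM, the muscle type, rose by 0.21 ± 0.05 in PNA-21 (adjusted p = 0.00230) and by 0.20 ± 0.05 in PNA-10b+21 (0.00299). Its libraries were at 135, 127 and 140 CPM in Control and at 158, 151 and 155 CPM in PNA-21, with no overlap.

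The ratio of isozymes within a library is free of library scaling. The log2 ratio of HK2 to HK1 counts was -0.06 ± 0.07 (SD, n = 3) in Control, -0.31 ± 0.11 in PNA-21 and -0.43 ± 0.17 in PNA-10b+21. All 6 libraries with sgPNA-21 lay below the 3 Control libraries, and each difference had the smallest p that an exact permutation test of 3 against 3 can give (two-sided p = 0.1, 0.25 after Benjamini-Hochberg adjustment over 15 such tests). The ratio of PFKP to PFKL plus PFKM was -0.18 ± 0.01 in Control and -0.01 ± 0.07 in PNA-10b, higher in all 3 PNA-10b libraries (exact p = 0.1). It was -0.13 ± 0.14 in PNA-21 (exact p = 0.7), which is within the spread of the libraries. The ratio of ENO2 to ENO1 differed from Control by 0.06, -0.03 and -0.11 in PNA-10b, PNA-21 and PNA-10b+21 (exact p = 0.4, 0.8 and 0.3).

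**Figure D4:**
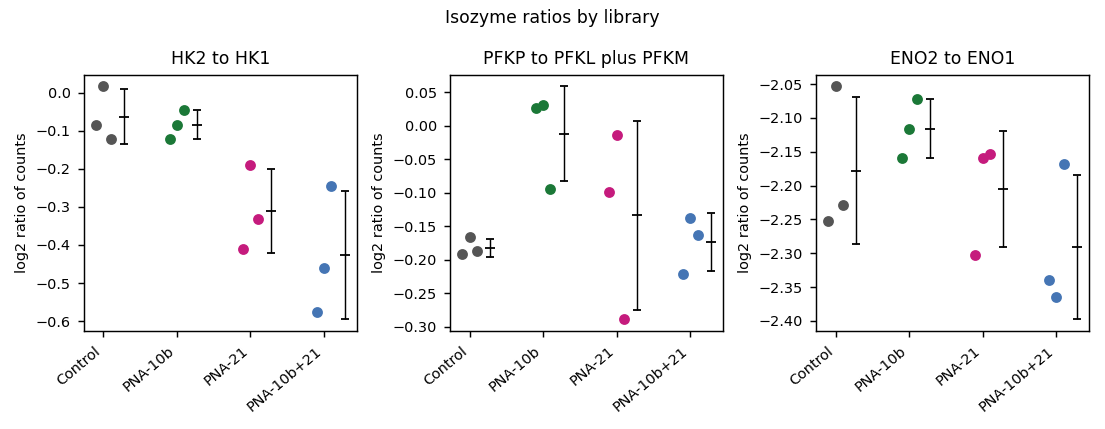
Log2 ratio of counts within each library (points) with the group mean and SD (n = 3) for 3 isozyme pairs; the axes do not start at 0 and differ between panels. HK2 to HK1 is lower than Control in the 6 libraries with sgPNA-21. PFKP to PFKL plus PFKM is higher than Control in the 3 PNA-10b libraries. ENO2 to ENO1 overlaps Control in every treated group.

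The steps without a member among the 10 were also measured. GAPDH, which oxidises glyceraldehyde 3-phosphate, fell by 0.24 on the log2 scale in PNA-21 (SE 0.07, adjusted p = 0.0157, edgeR) and by 0.20 in PNA-10b+21 (0.0417), although its libraries overlapped those of Control. PGAM1, a phosphoglycerate mutase, fell by 0.36 in PNA-21 (adjusted p = 0.000299) and by 0.35 in PNA-10b+21 (0.000320). PKM, the pyruvate kinase of most tissues, fell by 0.29 (0.00401) and 0.24 (0.0137). ENO3, the muscle enolase, did not pass (-0.12 and -0.22). LDHB, the other main lactate dehydrogenase subunit, was 0.97 ± 0.32 higher in PNA-21 (adjusted p = 0.0281), but its Control counts were only 168, 192 and 37, and another gene, AC010197.2, shares 93.5% of its coding bases in the annotation, so its level is as uncertain as that of ALDOA.

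Of 22 other enzymes listed for the glycolytic steps 12 were tested. In PNA-21 against Control, 3 were higher (PFKM, LDHB and HKDC1) and 5 were lower (PFKL, PGAM1, PKM, GAPDH and PGAM4, the last named after its values were seen), with a median log2 fold change of -0.18. HKDC1, a hexokinase domain protein, rose in all 3 treated groups, at 0.44 ± 0.10 with sgPNA-10b, 0.50 ± 0.10 with sgPNA-21 and 0.61 ± 0.10 with both. In PNA-10b+21, 2 were higher and 4 lower, and in PNA-10b, 1 was higher and 1 (PFKL) lower.

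The carriers that bring glucose in and lactate out include direct partners of the enzymes. Of 15 listed 9 were tested. SLC2A1, the glucose transporter GLUT1, was at 311, 287 and 301 CPM in Control, at 179, 221 and 157 CPM in PNA-21 and at 131, 169 and 195 CPM in PNA-10b+21. It fell by 0.69 on the log2 scale in PNA-21 (SE 0.11, adjusted p = 6.31e-05, edgeR) and by 0.86 in PNA-10b+21 (5.53e-06), with no overlap with Control. SLC16A3, the lactate exporter MCT4, fell by 0.57 (8.92e-05) and 0.69 (1.03e-05). BSG, the chaperone of lactate carriers, fell by 0.17 and 0.15. SLC2A12, named after its values were seen and at 1.21 to 2.12 CPM, was the fourth carrier called lower in PNA-21. SLC16A7, the lactate carrier MCT2, rose by 0.47 ± 0.11 in PNA-21 (0.00232) and had 0.17 ± 0.11 in PNA-10b+21 (0.263). No carrier passed in PNA-10b.

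Of 13 regulators of glycolytic flux 12 were tested, and in PNA-21 5 were lower and 1 higher. PFKFB4 and PFKFB3 make fructose 2,6-bisphosphate, the activator of phosphofructokinase, and fell by 0.84 (adjusted p = 5.96e-06, edgeR) and 0.53 (1.27e-05). PDK1 and PDK3, kinases that switch off pyruvate dehydrogenase, fell by 0.53 (0.000166) and 0.57 (2.11e-05). PFKFB2 rose by 0.27 and BPGM fell by 0.21, both named after their values were seen. In PNA-10b+21 the same 4 kinases were the ones called lower, by 0.95, 0.60, 0.65 and 0.69, and PFKFB2 was higher by 0.33.

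Part of this list was lower with sgPNA-10b alone. PFKFB3 fell by 0.31 (adjusted p = 0.0107, edgeR) and PDK3 by 0.35 (0.0107) in PNA-10b, whereas PDK1 (-0.05 ± 0.09) and PFKFB4 (-0.28 ± 0.10, adjusted p = 0.119) did not pass. PDK4 was also called lower (-1.65 ± 0.40, adjusted p = 0.0158) from 1.04 to 0.321 mean CPM, and was named after its values were seen. Whether these calls hold with single libraries left out was not examined.

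Branches that leave glycolysis moved in different directions. Of 8 pentose phosphate genes 7 were tested, and 4 were higher and none lower in both PNA-21 and PNA-10b+21. TKT, a transketolase, rose by 0.16 ± 0.05 and 0.22 ± 0.05, PGD by 0.18 ± 0.05 and 0.24 ± 0.05, RPIA by 0.47 ± 0.10 and 0.33 ± 0.10, and TALDO1 by 0.16 ± 0.06 in each. In the glycogen and glycerol branches 10 of 12 were tested, and 4 were lower and 1 higher in both groups. GYS1, the glycogen synthase, fell by 0.79 (adjusted p = 6.49e-07, edgeR) and 0.83 (2.97e-07), and GBE1, the branching enzyme, by 0.48 and 0.57. PYGL fell by 0.30 and 0.27 and PGM1 by 0.37 and 0.36, and PGM1 fell by 0.22 in PNA-10b too (0.0121). GPD2, named after its values were seen, was the gene higher in both (0.28 and 0.17).

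Genes of pyruvate entry into mitochondria did not fall together. Of 9 tested, 3 were higher in PNA-21, namely DLD (0.24 ± 0.05), PDHX (0.27 ± 0.06) and DLAT (0.34 ± 0.07), all parts of the pyruvate dehydrogenase complex. PC, which carboxylates pyruvate, was lower with sgPNA-21 (-0.26 ± 0.06) and with sgPNA-10b (-0.34 ± 0.06, adjusted p = 0.00228, edgeR). In PNA-10b+21, 4 were higher and none lower: DLD, PDHX, and, named after their values were seen, PDHA1 and PDP2. Of 7 gluconeogenic genes only PCK2 and G6PC3 were tested, and neither passed.

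The HIF list had 9 of its 10 genes tested. HIF1A, the oxygen-regulated subunit, fell by 0.28 (adjusted p = 0.00131, edgeR) in PNA-21 and by 0.31 (0.000468) in PNA-10b+21. EPAS1, the related subunit HIF-2 alpha, fell by 0.19 and 0.23, and EGLN1, a prolyl hydroxylase that marks HIF subunits for removal, by 0.46 and 0.59. ARNT2, a partner subunit, rose by 0.39 and 0.45. HIF3A fell by 0.70 in PNA-10b+21 and had -0.44 ± 0.18 in PNA-21 (adjusted p = 0.0693), at 3.49 to 6.21 mean CPM. ARNT, EGLN2, VHL and HIF1AN passed in neither, and no gene of the list passed in PNA-10b. These are transcript levels, and HIF subunits are mainly regulated as proteins, which were not measured.

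**Figure D5:**
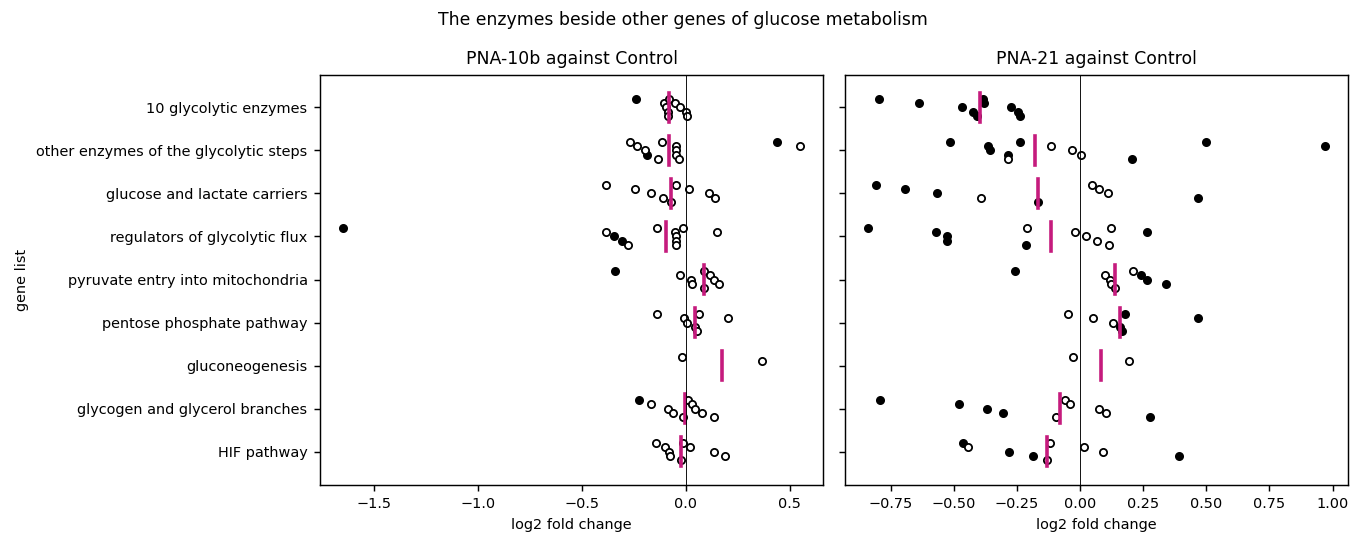
Log2 fold change against Control of the 10 enzymes and of the tested genes in 8 other lists, for PNA-10b (left) and PNA-21 (right); each point is a gene, filled where the adjusted p is under 0.05, and the bar is the list's median. The 10 enzymes are all filled and negative on the right with a median of -0.40, the pentose phosphate genes have a median of 0.16, and the axes of the panels differ in range.

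Across the 12 libraries the enzymes varied together. Each enzyme's log2 CPM was correlated with the mean of the other 9, and Pearson's r was highest for PGK1 (0.993) and LDHA (0.979) and lowest for ALDOA (0.80). These values are descriptions over 12 libraries that share 4 groups, and most of the variation lies between groups. Among 6483 other genes whose mean log2 CPM was 5 or more, the pattern most like the mean of the 10 enzymes was that of LOXL2 (r = 0.989), followed by GBE1 (0.989), MXRA7 (0.988), GYS1 (0.987), FBN1 (0.987), FAM162A (0.986), MTMR4 (0.986), PRKCA (0.986), SYNPO (0.985) and SYTL2 (0.985). LOXL2 is a lysyl oxidase and FBN1 a fibrillin, both of the extracellular matrix. These 10 were picked for following the enzymes, and their log2 fold changes in PNA-21 against Control ran from -1.20 (SYNPO) to -0.41 (MXRA7).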

How the data were processed

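The authors deposited 1 table of whole-number counts per gene, without normalization as the differing library totals show. HISAT2 2.1.0, SAMtools 1.7, HTSeq 0.11.0 and the build hg38 come from the submitters' processing notes. Neither the handling of strand and of reads in overlapping genes nor the annotation used is given in the sources used here. The library kit keeps strand, per the labels' protocols. All 12 columns matched a sample.

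Genes were filtered with filterByExpr (minimum count 10), which kept 15715 genes with 99.8% of the counts. TMM scaling and the quasi-likelihood test (glmQLFit, glmQLFTest) of edgeR 4.0.16 in R 4.3.3 were run over all 12 libraries with 1 mean per group, and p-values were adjusted by Benjamini-Hochberg over all tested genes at 0.05. Alternatives were RLE factors, library totals alone, DESeq2 1.42.0, no filter, a replicate block, only the groups compared, and leaving out each library. Fold changes and calls of single genes were followed across these alternatives for the 10 enzymes only, not for the genes of the other lists. Coordinates, lengths and 3′ UTRs came from GENCODE 29, which matched 34564 of the 35741 gene identifiers. RPKM divides scaled counts by all exon bases of a gene. Promoter windows and miR-21-5p came from RefSeq; miR-10b-5p was not analysed here.

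Each of the 10 enzymes is described in every comparison. From each pathway list at most 4 genes are named, those with the smallest p for any difference among the 4 groups, besides set isozymes and the HIF genes; names outside this rule are marked. The members and lists were chosen with earlier results of these data known. Same-numbered libraries of different groups had correlated deviations of -0.0577 to 0.109 over 18 pairs, with 1 pair over 0.1, so the numbers were not taken to pair them.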

Additional observations from a re-analysis of the deposited data

How the results depend on the processing

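For PNA-21 against Control and for PNA-10b+21 against Control, all 180 recomputed values of the 10 enzymes (18 alternatives each) kept their direction and their call, for each comparison. For PNA-10b against Control, 171 of 180 values kept both. With 1 library left out the count of enzymes called lower ran from 0 to 1 in PNA-10b against Control, from 5 to 10 in PNA-10b+21 against PNA-10b and from 6 to 10 in PNA-21 against PNA-10b. The number of all genes called ran from 306 to 1252 in PNA-10b against Control, from 2748 to 4293 in PNA-10b+21 against Control, from 532 to 1687 in PNA-10b+21 against PNA-10b, from 545 to 1166 in PNA-21 against PNA-10b and from 92 to 1028 in the interaction. Without the low-count filter 332 genes were called in PNA-10b+21 against PNA-21 and 1074 in the interaction, and 48 genes in PNA-10b+21 against PNA-21 with only the groups compared; none of these was an enzyme of the 10. HK2 in PNA-21 against PNA-10b passed in DESeq2 (adjusted p = 0.0398), without the filter (0.0123) and with only the groups compared (0.0432). Log2 values near 0 changed sign without single libraries: GPI -0.015 to 0.030, PFKP -0.018 to 0.023, ENO2 -0.073 to 0.0042 in PNA-10b against Control; GPI -0.080 to 0.022, PFKP -0.12 to 0.034, ALDOA -0.069 to 0.072, TPI1 -0.047 to 0.063, PGK1 -0.100 to 0.023, ENO1 -0.048 to 0.081, ENO2 -0.15 to 0.024, LDHA -0.042 to 0.067 in PNA-10b+21 against PNA-21; and HK2 -0.11 to 0.043, GPI -0.086 to 0.018, PFKP -0.12 to 0.033, PGK1 -0.015 to 0.11, ENO2 -0.13 to 0.052 in the interaction, where PGK1 was also -0.0010 with library totals alone. None of these was called. With a replicate block no call of an enzyme changed, and the genes called were 1271 in PNA-10b against Control, 4851 in PNA-21 against Control, 4407 in PNA-10b+21 against Control, 1706 in PNA-10b+21 against PNA-10b, 0 in PNA-10b+21 against PNA-21, 1204 in PNA-21 against PNA-10b and 710 in the interaction. By the length of the transcript with the longest coding sequence, an alternative added after seeing the data, Control levels were 82.5 RPKM for HK2, 63.3 for GPI, 172 for PFKP, 24.2 for ALDOA, 56.0 for ALDOC, 918 for TPI1, 490 for PGK1, 1462 for ENO1, 267 for ENO2 and 1369 for LDHA. Counts of 428 to 727 limit the precision for ALDOA, and 3 libraries per group limit exact permutation tests to p = 0.1. The cause of these changes was not tested.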
